A study of Mus musculus with 2 samples.

Results

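The 44 genes described here encode proteins that build ribosomes in the nucleolus. They were taken from a fixed list of names, matched to the non-control probes of the array under the current symbol or an older one. All 44 were found and all 44 were measured on both arrays, 8 of them under an older name, out of 15544 genes measured in all. RNA came from mouse RAW 264.7 cells, an established macrophage line used as a source of osteoclast-like cells, which it forms under the cytokine RANKL. The control group is 1 array of cells kept at ground level. The RCCS group is 1 array of cells held for 24 h in a rotary cell culture system, which models microgravity. The protocol text, which is the same for both samples, names RANKL (80 ng/ml, 24 h) and does not settle whether the control cells also received it. No genotype differs between the groups, and both come from the same line. Each value is the brightness of a spot on an Agilent whole mouse genome array.

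Ribosome assembly starts with RNA polymerase I, which copies the ribosomal DNA into a long precursor RNA in the nucleolus. Small nucleolar ribonucleoproteins (snoRNPs) modify that precursor, large complexes fold and cut it, and separate sets of factors finish the small and the large subunit. The transcription factor MYC is known to drive many of these genes in growing cells, so their RNA levels are often read beside that of Myc.

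With 1 array per condition the conditions cannot be tested against each other, and every difference below lacks a replicate check. In RNA pooled from many cells, fewer cells that express a gene and less RNA per cell cannot be told apart. A log2 ratio here is RCCS minus control after each array was divided by its own 75th percentile of processed signal (849 on the control array, 966 on the RCCS array), so a shift shared by all genes is removed. The scanner software assigns an error that gives a typical gene a 95% half-width of 0.40 on this log2 scale. It covers the spots and not the cultures. The 108 probes printed 5 or more times with a signal of at least 100 had a median SD of 0.04 in their log2 ratios. The share of the 41171 probes that stood well above background was 57.5% for control and 60.6% for RCCS. The line's identity held up in 9 of 10 macrophage markers measured on both arrays (Mrc1 was not well above background on either). Among 37 markers of neutrophils, fibroblasts, epithelium, lymphocytes, endothelium and red cells, S100a8 alone reached a signal of 1000, at 152 (control) and 12449 (RCCS). Without it their summed signal was 1833 and 2170, and 15 of the 37 were well above background on neither array. The median log2 ratio of the 8 measured osteoclast markers was -0.54 (-0.49 after the trend correction described in the account of signal level). Of these, 6 lay below 0 (61.9% of all genes did), among them 4 that were lower by 1.5-fold or more (14.8%). Dcstamp, a fusion protein gene, went from 1297 to 481, while Ctsk, the bone-degrading protease cathepsin K, was the 1 marker at least 1.5-fold higher, from 2225 to 5896. The part of these markers in the results below was not tested.

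The ribosome biogenesis genes were lower on the RCCS array as a group, most of them by less than 2-fold. Of the 44, 43 had a log2 ratio below 0, where 61.9% of all measured genes did. Their median was -0.51, a 1.42-fold lower signal, where the median of all measured genes was -0.13. The values ran from -1.23 for Tcof1 to 0.06 for Heatr1. At least 1.5-fold lower were 17 of the 44 (38.6%), against 14.8% of all measured genes, and 0 were at least 1.5-fold higher, against 9.62%. At least 2-fold lower was 1 gene, Tcof1, against 3.78% of all genes, and 0 were at least 2-fold higher, against 3.92%, so few of these genes had large differences. In rank, 25 of the 44 lay in the lowest 25% of all log2 ratios and 42 in the lower 50%. By the software's spot error, 23 of the 44 lay below the median of all genes by more than their own half-width, against 18.8% of all genes.

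**Figure D1:**
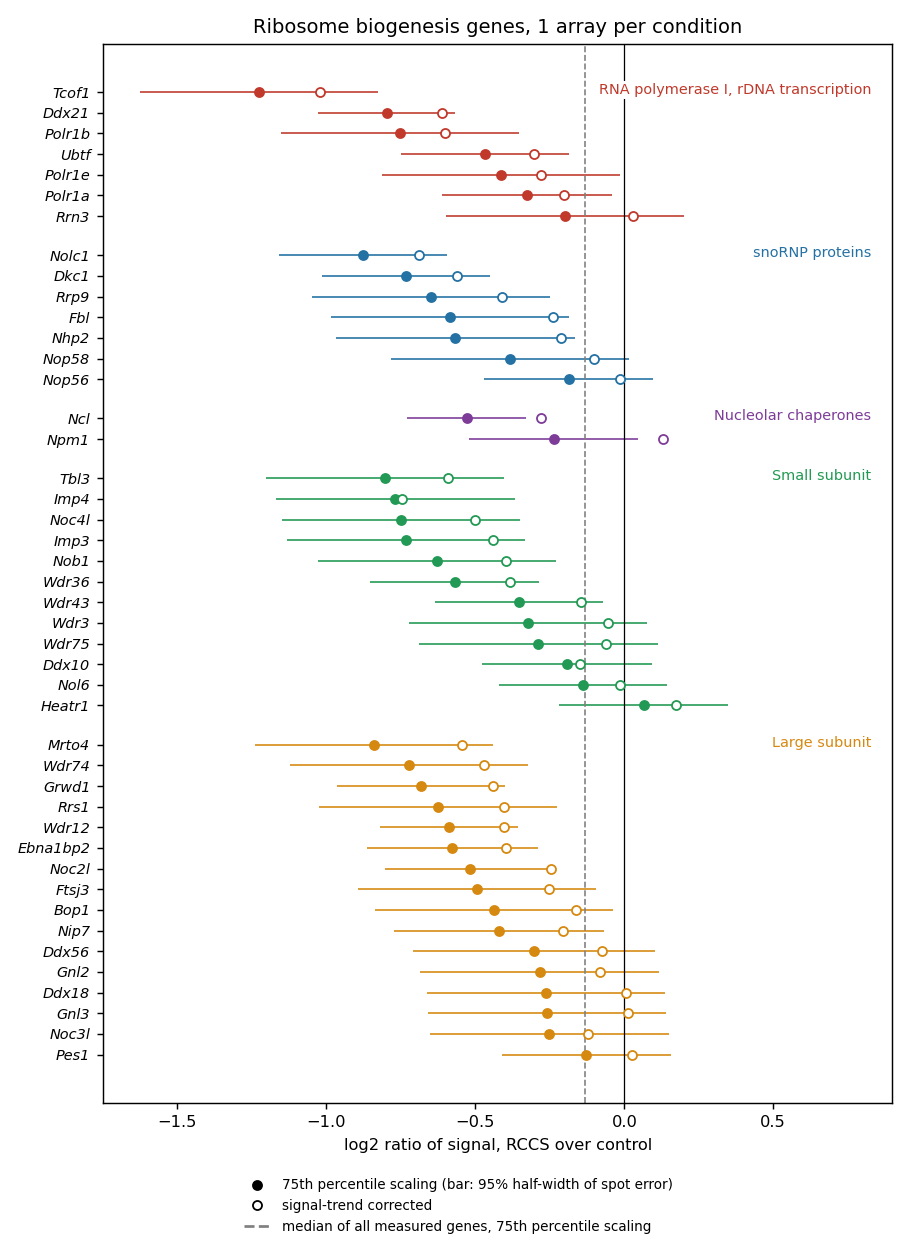
Log2 ratio of signal (RCCS over control, x axis) of the 44 genes, ordered by role. Filled points use 75th percentile scaling with the 95% half-width of the spot error, open points are corrected for the signal trend, and the dashed line is the median of all measured genes, -0.13. Filled points of 43 genes lie left of 0, and the open points of 38 do.

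Signal level moves with these values. The 44 genes were bright, with a median signal of 7634 against 709 for all measured genes, and the brightest genes of the array as a whole had lower ratios. Genes with a mean signal between 1000 and 10000 had a median log2 ratio of -0.15 (5223 genes), and the 27 ribosome biogenesis genes in that range had -0.49, with 24 below the median of their range. Above 10000 the median of all 1656 genes was -0.34, and the 15 ribosome biogenesis genes there had -0.52, with 10 below it. A correction for this trend subtracted a smooth curve (loess) of log2 ratio on signal, fitted over all measured probes. After it the median of the 44 was -0.25, where that of all genes was 0.00, and 38 of the 44 were below 0, against 50.4% of all genes. Then 6 of the 44 were at least 1.5-fold lower (13.6%), against 9.70% of all genes, a share near the background, while 21 lay in the lowest 25% of all genes. Tcof1 was again the one gene at least 2-fold lower, against 2.73% of all genes, and 0 were at least 2-fold higher, against 4.72%. The median of the group thus lay below that of all genes with and without the correction, and was closer to it with the correction. Whether that trend comes from the labelling and scanning or from the cells was not tested.

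**Figure D2:**
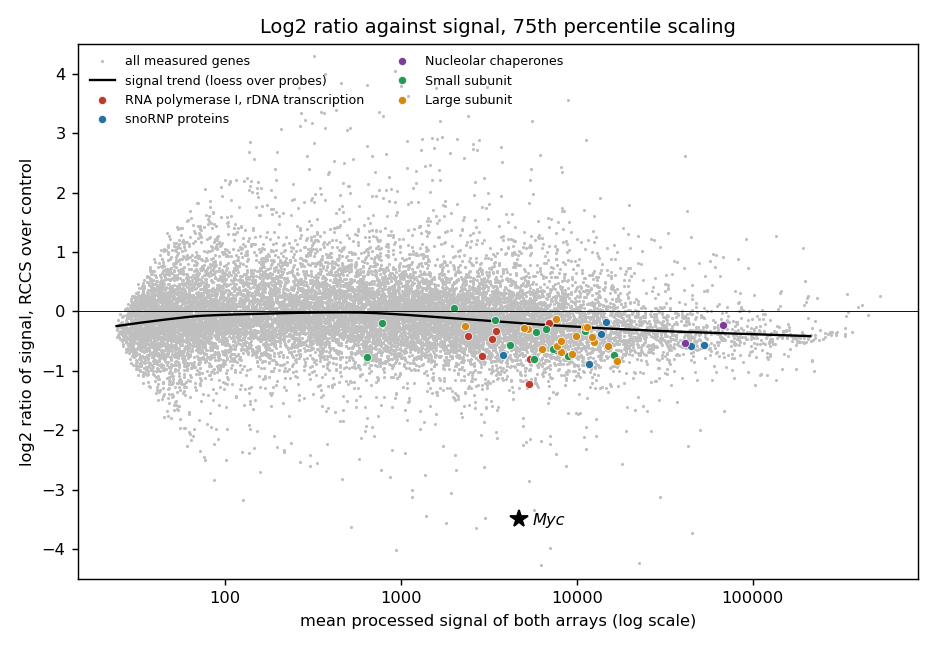
Log2 ratio (RCCS over control, 75th percentile scaling) against mean processed signal of both arrays on a log axis. Grey points are the 15544 measured genes, of which the few beyond 4.5 are not drawn, the line is the signal trend, coloured points are the 44 genes by role and the star is Myc. Most coloured points lie below the line, and Myc lies far lower, at -3.50.

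Myc stood far below the genes that MYC is known to drive. Its 3 probes gave log2 ratios of -3.53, -3.53 and -3.44, and its brightest probe went from 9691 on the control array to 956 on the RCCS array. The gene value was -3.50, an 11.3-fold lower signal, or -3.36 after the trend correction. The median difference of the 44 genes was 1.42-fold beside that. With 2 arrays, no correlation between Myc and these genes can be computed, so the values only stand side by side. The genes of MYC's partners and antagonists did not share a direction. Max, the dimer partner, was at -0.47, Mlx, a partner in the related network, at -0.36 and Mxd1, an antagonist, at -0.01. Mxd4, an antagonist of the MXD group, was at 0.64, with probes at 0.11 and 1.16, and Mxi1 and Mnt, also antagonists, were at 0.38 and 0.34. Mxd3, Mlxip and Mga, of the same network, were at 0.10, 0.11 and 0.12. Mycn was at 0.23, with mean signals of 17118 (control) and 17003 (RCCS), but its 2 probes lay at -0.48 and 0.94. Mycl was well above background on the control array only, at a signal of 50.4.

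MYC binds E-boxes, with CACGTG as the best known form, so promoters were searched for those letters. CACGTG is its own reverse complement, which covers both strands. Promoters from RefSeq (build GRCm38.p6), 250 bases before to 50 after the annotated start, were in the table used here for 35 of the 44 genes. Of these 35, 5 (14.3%) held CACGTG in at least 1 promoter, against 11.4% of the 10482 measured genes with a promoter in the table and 7.15% of all 32851 promoters. In the window from 100 bases before the start, 4 of 35 (11.4%) held it, against 7.21% of measured genes. The 5 promoters are printed here because they are the ones with the letters, written 5′ to 3′ on the gene's strand with CACGTG in capitals.
Grwd1 promoter (chr7:45830740-45831039, minus strand): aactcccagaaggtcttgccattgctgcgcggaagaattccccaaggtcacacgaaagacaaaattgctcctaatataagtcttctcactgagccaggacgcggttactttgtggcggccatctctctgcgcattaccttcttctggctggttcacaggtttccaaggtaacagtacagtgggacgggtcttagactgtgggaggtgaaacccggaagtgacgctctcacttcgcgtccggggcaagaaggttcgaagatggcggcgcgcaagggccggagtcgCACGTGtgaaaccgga
Imp4 promoter (chr1:34439579-34439878, plus strand): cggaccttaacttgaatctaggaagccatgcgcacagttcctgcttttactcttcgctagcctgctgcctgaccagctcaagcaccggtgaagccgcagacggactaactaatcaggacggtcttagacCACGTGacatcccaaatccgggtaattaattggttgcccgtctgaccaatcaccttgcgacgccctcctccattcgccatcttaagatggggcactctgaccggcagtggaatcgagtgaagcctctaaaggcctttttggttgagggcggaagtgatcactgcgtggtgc
Pes1 promoter (chr11:3963725-3964024, plus strand): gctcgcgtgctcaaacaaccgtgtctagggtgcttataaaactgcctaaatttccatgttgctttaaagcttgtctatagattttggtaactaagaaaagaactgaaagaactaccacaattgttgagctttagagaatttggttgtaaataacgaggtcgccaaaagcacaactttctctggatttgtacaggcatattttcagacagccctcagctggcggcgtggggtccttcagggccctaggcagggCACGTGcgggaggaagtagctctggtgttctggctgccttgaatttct
Rrn3 promoter (chr16:13780449-13780748, plus strand): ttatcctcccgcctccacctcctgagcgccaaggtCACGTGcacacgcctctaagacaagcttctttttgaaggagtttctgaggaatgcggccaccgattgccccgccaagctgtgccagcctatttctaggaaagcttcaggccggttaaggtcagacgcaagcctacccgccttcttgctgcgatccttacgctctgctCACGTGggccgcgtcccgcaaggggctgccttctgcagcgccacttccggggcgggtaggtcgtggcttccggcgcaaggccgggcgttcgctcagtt
Wdr43 promoter (chr17:71615965-71616264, plus strand): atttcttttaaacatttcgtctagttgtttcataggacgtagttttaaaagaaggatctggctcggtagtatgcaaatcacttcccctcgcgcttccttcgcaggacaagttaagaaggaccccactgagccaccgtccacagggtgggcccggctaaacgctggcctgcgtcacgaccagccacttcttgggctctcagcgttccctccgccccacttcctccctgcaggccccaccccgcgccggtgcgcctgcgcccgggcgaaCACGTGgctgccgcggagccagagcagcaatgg
Rrn3 holds CACGTG 2 times, and the other 4 hold it 1 time each. The log2 ratios of these genes were -0.68 for Grwd1, -0.77 for Imp4, -0.13 for Pes1, -0.20 for Rrn3 and -0.35 for Wdr43, so they lie across the range of the 44. Their median was -0.35, and that of the 30 genes without the letters was -0.51. Over all measured genes the medians with and without CACGTG were -0.13 and -0.12. For contrast, the 2 lowest genes with a promoter in the table, shown next, hold no CACGTG in this window. The capitals in Nolc1 mark CCGGAAG, the core that ETS family factors are known to bind, and Mrto4 holds neither.
Nolc1 promoter (chr19:46075597-46075896, plus strand): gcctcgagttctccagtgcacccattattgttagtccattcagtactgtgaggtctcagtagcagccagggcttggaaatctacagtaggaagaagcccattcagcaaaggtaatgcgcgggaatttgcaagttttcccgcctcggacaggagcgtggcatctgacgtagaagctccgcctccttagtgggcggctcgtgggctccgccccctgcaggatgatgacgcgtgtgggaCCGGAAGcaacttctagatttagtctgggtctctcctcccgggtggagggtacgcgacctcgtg
Mrto4 promoter (chr4:139352527-139352826, minus strand): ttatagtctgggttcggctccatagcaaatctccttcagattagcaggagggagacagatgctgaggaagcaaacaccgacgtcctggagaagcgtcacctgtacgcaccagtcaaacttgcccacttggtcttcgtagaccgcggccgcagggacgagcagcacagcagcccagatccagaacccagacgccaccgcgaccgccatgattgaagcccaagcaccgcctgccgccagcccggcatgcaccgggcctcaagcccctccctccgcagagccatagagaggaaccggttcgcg
These matches describe the letters and do not show binding. No match in this window says nothing about E-boxes elsewhere in a gene.

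RNA polymerase I and its cofactors held the lowest gene of the 44. All 7 genes of this role were below 0 (61.9% of all genes were), and the median was -0.47. At least 1.5-fold lower were 3 of 7 (14.8% of all genes). After the trend correction 3 of 7 were still past 1.5-fold (9.70% of all genes), with a median of -0.30. Tcof1 encodes treacle, a nucleolar scaffold for ribosomal DNA transcription. Its 1 probe, printed in 1 spot, had a control signal of 7173 and an RCCS signal of 3486. That is 2.34-fold lower (log2 ratio -1.23, or -1.02 after the trend correction), and 2.07% of all measured genes were as low. Polr1b, the second largest catalytic subunit of the polymerase, went from 3467 to 2340 and had a log2 ratio of -0.75. The largest subunit gene, Polr1a, gave -0.43 at its bright probe (7202 and 6072) and -0.22 at a dim one, and Polr1e, a subunit of the dissociable part, went from 2588 to 2208 (-0.41). The factors that bring the polymerase to the gene were nearer to 0 than treacle. Ubtf, the architectural factor on ribosomal DNA, had probes at -0.43 and -0.51. Rrn3, the initiation factor that links the polymerase to its promoter, had nearly equal signals, 6945 (control) and 6875 (RCCS). Its log2 ratio of -0.20 is near the median of all genes, and 0.03 after the trend correction. Ddx21, a helicase that acts in transcription and processing of ribosomal RNA, was at -0.80, but its 3 probes lay at -0.82, -0.28 and -1.30 and so differ in size.

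Among the snoRNP proteins, 4 of 7 were at least 1.5-fold lower (14.8% of all genes were), and the median was -0.59. After the trend correction 1 of 7 was (9.70% of all genes), with a median of -0.24. Nolc1, a chaperone that shuttles snoRNPs to the nucleolus, was lowest at -0.88. Its bright probe went from 29482 to 14769 (-1.18) and its dim probe from 1357 to 1038 (-0.57). Dkc1, the pseudouridine synthase of the H/ACA class, had probes at -0.55 and -0.92, and its partner Nhp2 went from 59943 to 46010 (-0.57). The C/D class guides RNA methylation. In its core Fbl, the methyltransferase fibrillarin, went from 50910 in control to 38558 in RCCS cells, a log2 ratio of -0.59. Nop58, a scaffold of the same particle, went from 14740 to 12839 (-0.38). Nop56, its other scaffold, was at -0.55 at its bright probe (32535 and 25247) and at 0.18 at a probe with less than 1% of that signal, which put the gene value at -0.19. Rrp9, a protein of the U3 snoRNP that takes part in early cuts of the precursor, went from 8841 to 6412 (-0.65). Fbl and Nhp2, the brightest of this role, came to -0.24 and -0.21 after the trend correction.

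Of the abundant nucleolar chaperones, Ncl had the lower value, and the size of its difference from Npm1 depended on the probes used. Nucleolin, encoded by Ncl, went from 96549 to 68353 at its brightest probe (-0.68), and its other probes gave -0.67, -0.63 and, at under 1% of that signal, -0.13. Nucleophosmin, encoded by Npm1, had 71569 and 69233 at one probe and 65748 and 63241 at the other, with log2 ratios of -0.23 and -0.24. The gene values were -0.53 for Ncl and -0.24 for Npm1, and their half-widths (0.20 and 0.28) overlap. Ncl lay below the median of all genes (-0.13) by more than its half-width, and Npm1 did not. The value of Npm1 lies within the range of the 4 Ncl probes only through the dim Ncl probe at -0.13. After the trend correction Ncl was at -0.28 and Npm1 at 0.13.

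Small subunit factors ran from a lower set to a set near the array's median. Of 12 genes, 11 were below 0 (61.9% of all genes were), and the median was -0.46. At least 1.5-fold lower were 5 of the 12 (14.8% of all genes). After the trend correction 2 of 12 were at least 1.5-fold lower (9.70% of all genes), with a median of -0.27. The lower set was led by Tbl3, a WD-repeat protein of the small subunit processome (the complex that folds the early precursor), from 6946 to 4524 (-0.80). Imp4 and Imp3, which work with the U3 snoRNP, went from 765 to 510 (-0.77) and from 19261 to 13177 (-0.73). Imp4 was one of 2 dim genes of the 44, and the trend correction left it at -0.75. Noc4l, needed for nuclear maturation of the small subunit, went from 10680 to 7222 (-0.75), and Nob1, the nuclease that makes the last cut of the small subunit RNA, had 8416 and 6185 (-0.63). Wdr36, also of the processome, had probes at -0.45 and -0.69. The other genes of this role lay within their spot error of the median of all genes. Wdr43 had probes at -0.53 and -0.18, Wdr3 went from 11631 to 10568 (-0.32) and Wdr75 from 6896 to 6421 (-0.29). Nol6 was at -0.14, with probes at -0.11 and -0.17, and the helicase gene Ddx10 was at -0.19, with probes at 0.08 and -0.46. Heatr1, a large scaffold of the processome also linked to polymerase I transcription, was the one gene of the 44 above 0, with probes at 0.24 (2419 and 3247) and -0.11 (1143 and 1204). The arrays thus do not separate Heatr1, Nol6 and Ddx10 from the median gene.

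All 16 large subunit genes were below 0 (61.9% of all genes were), and the median was -0.47. At least 1.5-fold lower were 5 of the 16 (14.8% of all genes). Mrto4, which takes the place of the ribosomal stalk during assembly, was lowest, from 20717 to 13153 (-0.84). Wdr74 went from 11068 to 7626 (-0.72), Grwd1, a histone-binding WD-repeat protein of the nucleolus, had probes at -0.75 and -0.61, and Rrs1, which helps to install the ribosomal 5S particle, went from 7317 to 5390 (-0.63). The 3 genes of the PeBoW complex, which is needed to process the large subunit RNA, were measured separately. Wdr12 had bright probes at -0.64 and -0.73, Bop1 went from 13181 to 11064 (-0.44), and Pes1 was at -0.43 at its bright probe (15967 and 13461) but at 0.18 at a dim one (496 and 638). At their bright probes the 3 genes of this complex thus lay between -0.43 and -0.73, and the spot error half-widths overlap. Ebna1bp2 gave -0.54 and -0.62, and Nip7 -0.67 at a bright probe and -0.17 at a dim one. Noc2l, a partner in large subunit export, had probes at -0.44 and -0.60, and Ftsj3, a methyltransferase, went from 8961 to 7238 (-0.49). Nip7, Ftsj3, Bop1 and Pes1 lay within their spot error of the median of all genes, and so did the remaining 5 genes. Ddx56 was at -0.68 at its bright probe and 0.08 at a probe near background (30.6 and 36.8). Ddx18 went from 11353 to 10768 (-0.26), the GTPase genes Gnl2 and Gnl3 from 5155 to 4813 (-0.28) and from 11776 to 11190 (-0.26), and Noc3l from 2358 to 2253 (-0.25). After the trend correction 0 of the 16 were at least 1.5-fold lower (9.70% of all genes). The corrected median was -0.23, and Ddx18 and Gnl3 were at 0.01.

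Probes of the same gene showed how firm single values are. Of the 44 genes, 20 had more than 1 measured probe, and in 8 of them the probes lay over 0.5 apart. The 20 genes had 24 further probes besides the brightest. Of these, 10 had under 10% of the brightest probe's control signal, and 9 of the 10 had a log2 ratio above that of the brightest. The median difference over all 10 was 0.53. The 14 others had no such lean, with 5 above the brightest and a median difference of -0.09. With the dim further probes left out the median of the 44 was -0.56, 20 genes were at least 1.5-fold lower and 2, Tcof1 and Nolc1, at least 2-fold lower. This filter was chosen after seeing the data. Shares of all genes under it are not given, so these counts stand without a background. The difference from the median of all genes was -0.42 with the filter and -0.37 as reported. The differences between probes are given without the trend correction, and bright genes as a whole had lower ratios. After the correction Polr1a had -0.21 at its bright probe and -0.20 at its dim one. Nop56 still differed, with -0.22 at its bright probe and 0.20 at its dim one. The part of the signal trend in these differences was not tested, nor was what the dim probes bind.

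**Figure D3:**
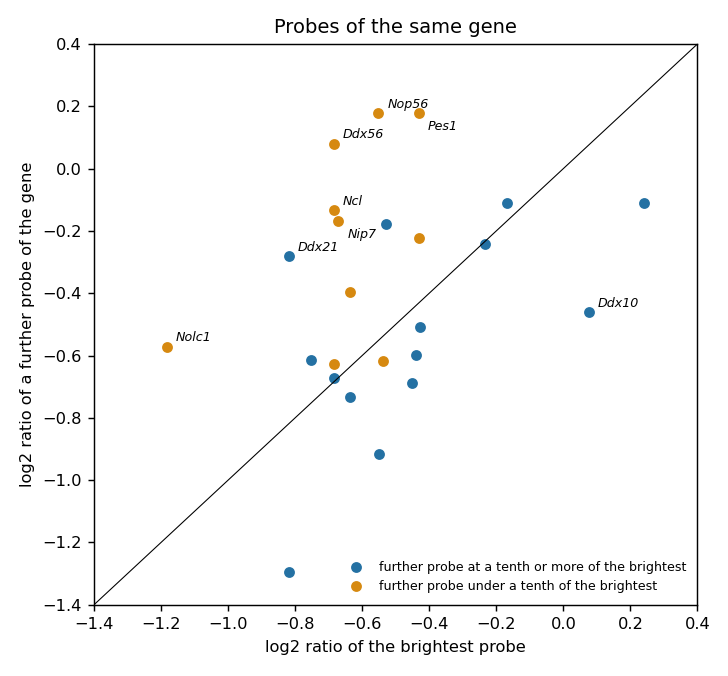
Log2 ratio of further probes (y axis) against the brightest probe of the same gene (x axis) for the 20 genes with more than 1 measured probe, 75th percentile scaling. Orange points have under 10% of the brightest probe's control signal, and 9 of the 10 lie above the line of equal values, while 5 of the 14 blue points do.

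Other genes of the pathway went the same way. A list of 98 further ribosome biogenesis genes measured on the arrays had a median of -0.42. Of them, 91 were below 0, against 61.9% of all genes. At least 1.5-fold lower were 32 (32.7%), against 14.8% of all genes, and 0 were at least 1.5-fold higher, against 9.62%. After the trend correction the median was -0.27, 47 lay in the lowest 25% of all genes, and 11 (11.2%) were at least 1.5-fold lower, near the 9.70% of all genes. Gar1, the H/ACA partner of Dkc1 and Nhp2, went from 13696 to 7237 (-1.11), Lyar, a nucleolar zinc finger protein, from 8251 to 4645 (-1.01), and Nop53 and Nvl, both of the large subunit, were at -0.90. The RNA exosome, which trims the precursor, had a median of -0.46 over 14 genes, with its catalytic subunit gene Dis3 at -0.94. Of the 14, 13 were below 0, against 61.9% of all genes. Genes of RNA polymerases II and III with the factors of polymerase III were less low, with a median of -0.33 over 31 genes. At least 1.5-fold lower were 3 of these 31 genes (9.68%), against 14.8% of all genes. Gtf3c5, a subunit of the polymerase III factor TFIIIC, stood apart from them at -1.71 (15562 and 5395, 1 probe).

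After the correction for signal, cytosolic ribosomal protein genes lay nearer to the median of all genes than the assembly genes did. The 77 cytosolic ribosomal protein genes had a median of -0.41, with 74 below 0, against 61.9% of all genes. At least 1.5-fold lower were 4 (5.19%), against 14.8% of all genes. These 77 genes were far brighter, with a median signal of 150682. The trend correction brought their median to -0.01, where that of the 44 assembly genes was -0.25. Mitochondrial ribosomal protein genes had medians of -0.46 and, corrected, -0.20 over 75 genes, and translation factors -0.41 and -0.11 over 43. The difference between these lists was not tested, since genes are not replicates. Lists more strongly lower than ribosome assembly were MYC-responsive growth genes outside it and proliferation genes. The MYC-responsive genes had a median of -0.69 (-0.39 corrected) over 38 genes, and 22 (57.9%) were at least 1.5-fold lower. Proliferation genes were at -0.94 (-0.64 corrected), with 19 of 20 at least 1.5-fold lower. The share of all genes was 14.8%. After the trend correction 10 of the 38 (26.3%) and 14 of the 20 were at least 1.5-fold lower, against 9.70% of all genes. Among the MYC-responsive genes, Shmt1 and Shmt2, the serine hydroxymethyltransferases, were at -1.37 and -1.04, Tomm40 at -1.02 and Srm, spermidine synthase, at -1.02. Of the 38, 34 were below 0, against 61.9% of all genes. Above 0 were Tfrc at 0.64, Ccnd2 at 0.37, Slc3a2 at 0.27 and Odc1 at 0.03. Tfrc was the 1 gene at least 1.5-fold higher, against 9.62% of all genes. Proliferation genes were thus lower beside the ribosome genes, and their part in the result was not tested.

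**Figure D4:**
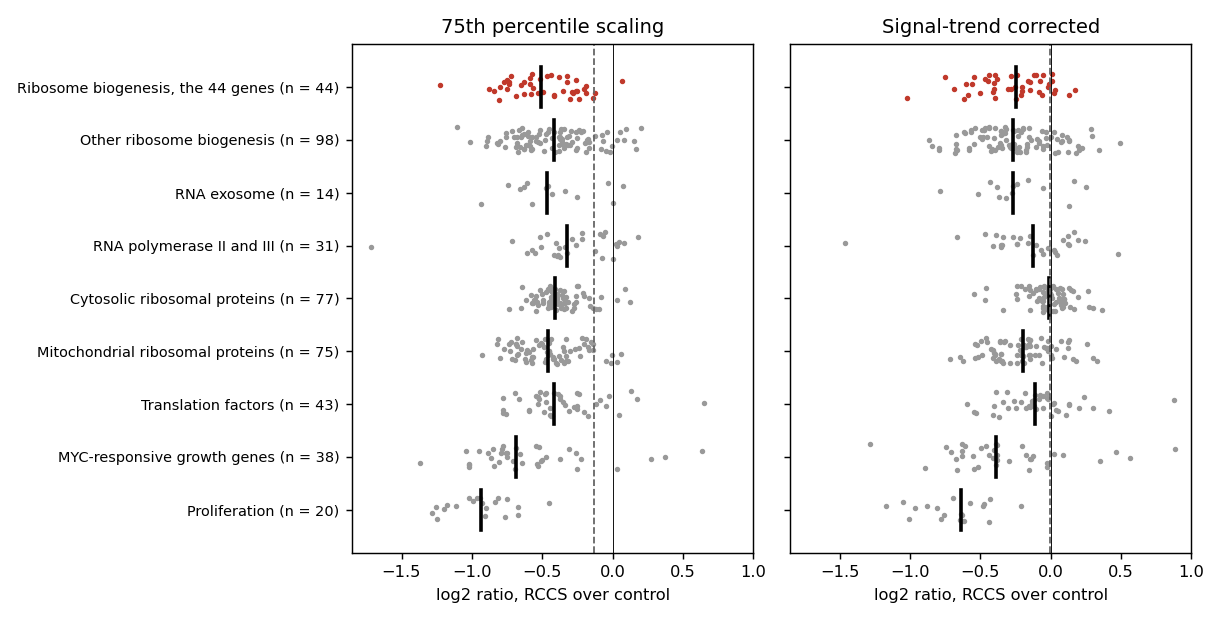
Log2 ratio (RCCS over control, x axis) of each gene in 9 lists, with 75th percentile scaling on the left and after the signal-trend correction on the right. Points are genes, black bars list medians and the dashed line the median of all measured genes. The 44 ribosome biogenesis genes (red) keep a median of -0.25 on the right, where the cytosolic ribosomal proteins are at -0.01.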

How the data were processed

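RNA of 2 samples, 1 control and 1 RCCS, was measured on 1-colour arrays labelled with Alexa-555 per the labels. The authors deposited spot intensity values on a linear scale, made with Agilent Feature Extraction 9.5.3.1 per the file headers: background subtracted and detrended within each array, with no scaling between arrays. Both arrays lay on 1 slide and share a scan time. They also deposited a ratio per probe and array without stating scale, centring or direction. Its values equal the processed signal divided by 849 (control) and 964 (RCCS), with a lowest value of 0.01 and a median of 0.06 in both columns, so it has no direction between arrays.

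Outlier spots (117 and 120) were left out, spots of a probe averaged, and each array scaled to its 75th percentile. A probe counted as measured where at least 50% of its spots were well above background on both arrays. For a gene, log2 ratios were averaged over its measured probes. Of 41171 probes, 22950 were named by accession through RefSeq (GRCm38.p6, used for names and promoters), 6658 by their file name, 3109 by an older name, and 8454 kept an unmatched name. Named are all 44 genes, all of the MYC network, and in the other lists mostly the up to 4 largest absolute log2 ratios. The 44 genes and the lists were chosen with earlier results of these data known. The trend correction used loess with a span of 0.3 (statsmodels 0.14.6, Python 3.11.15). Normexp used limma 3.58.1 in R 4.3.3. The code was tested on simulated data. With 1 array a group no model was fitted between groups, and the number of arrays limits the precision. Alternatives were other scalings, normexp with an offset of 50, the deposited ratios, other filters on dim probes and other rules for probes of 1 gene.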

Additional observations from a re-analysis of the deposited data

How the results depend on the processing

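Under 13 alternatives, 2 of them (leaving out dim further probes, and a loess span of 0.7) chosen after seeing the data, the median of the 44 genes stayed below that of all genes, from -0.43 to -0.21. That difference was -0.37 as reported, -0.26 without a filter on dim probes, -0.21 with quantile normalization, -0.25 with the trend correction and -0.26 with a span of 0.7. The median log2 ratio itself came to -0.37 with the 75th percentile of measured probes, -0.20 on the spike-in probes, -0.27 with quantile normalization, -0.25 with the trend correction and -0.26 with a span of 0.7. In the same order of settings, genes at least 1.5-fold lower were 10, 1, 6, 6 and 6 in place of 17. Among all genes the share was 14.8% as reported and 9.70% with the trend correction. Shares of all genes are not given for the other settings, so the counts there stand without a background. On the spike-in probes, 31 of the 44 were below 0, 0 were at least 2-fold lower and Myc was at -3.19. In rank, 25 of the 44 lay in the lowest 25% of all genes there, as with the reported scaling. The spike-in amounts per array are not stated in the labels. A scaling alone moves all genes alike, by 0.31 on the spike-in probes. At least 2-fold lower were 2 with the brightest probe of a gene and 2 with dim further probes left out, and a threshold of 1.5-fold gives 17 in place of 1. Of the genes below 0, 31 stayed below 0 under every alternative and 12 crossed it in at least 1. The same was not counted over all genes, so these numbers also stand without a background. Tcof1, Nolc1, Ddx21, Tbl3 and Imp4 were at least 1.5-fold lower in every alternative other than the spike-in scaling, where Tcof1 alone was. No paired analysis was possible because each group has 1 array. No array could be left out.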

Other observations

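Other promoter letters were searched after the result for CACGTG had been seen, in the same window of 300 bases and on both strands. CCGGAAG, an ETS core, was in the promoters of 13 of the 35 ribosome biogenesis genes with a promoter in the table (37.1%), against 19.0% of the 10482 measured genes and 8.86% of all promoters. GGGCGG, the core of Sp factor sites, was in 26 of 35 (74.3%), against 64.0% of measured genes. CCAAT was in 14 of 35 (40%), against 42.8%. The members with CCGGAAG had a median log2 ratio of -0.42 and the 22 without it -0.51. Over all measured genes the order was the opposite, -0.17 with it and -0.12 without. In the window from 100 bases before the start the members' medians were -0.47 and -0.49. The 43 promoters of these 35 genes had a median GC content of 59.3%, with 60% for measured genes and 52.7% for all promoters.

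Within RNA polymerase I, the subunits outside the 44 genes were also spread. Polr1c was at -0.55, Cd3eap (Polr1g) at -0.38, Polr1d at -0.33, Znrd1 (Polr1h) at -0.12 and Twistnb (Polr1f) at -0.05, while Polr1b was at -0.75. Polr1c and Polr1d also belong to RNA polymerase III. These genes were chosen after their values were seen.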
